A study of Mus musculus with 6 samples.

Results

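The DNAJ genes encode the J-domain co-chaperones, and 45 of the 34797 gene names on the array belonged to them. They were taken by name, as every non-control probe whose gene name is Dnaja, Dnajb or Dnajc followed by a digit, and the brightest probe over the 6 arrays stood for each gene. Subfamily A had 4 genes, subfamily B had 13 and subfamily C had 28. Satellite cells are the resident stem cells of muscle fibres. They were sorted from 3 C57BL6 mice in which Rpt3 was knocked out in these cells and from 3 control mice of the same strain. Rpt3, encoded by Psmc4, is an ATPase that unfolds ubiquitin-tagged proteins for degradation by the proteasome. Each mouse gave 1 single-colour Agilent array, hybridized with Cy3-labelled material amplified from a small amount of total RNA. The Cre driver, the deleted exons, the controls' alleles, and the age and sex of the mice are not given in the sources used here, and the cells that escaped deletion in the knockout mice were not measured apart.

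J-domain proteins carry unfolded or newly made proteins to HSP70 chaperones and stimulate their ATP hydrolysis, which locks the client onto the chaperone. Subfamily A proteins resemble bacterial DnaJ and hold a zinc finger region, subfamily B proteins lack the zinc finger but keep a stretch rich in glycine and phenylalanine, and subfamily C proteins share little beyond the J domain. Cells whose proteasome is blocked by drugs are known to switch on heat shock factor targets, among them DNAJB1 and the inducible HSP70, and muscle relies on DNAJB6, which is mutated in a form of limb-girdle muscular dystrophy. The comparison asks how the messages of these co-chaperones differ between satellite cells with and without Rpt3.

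Promoter and probe sequences are shown first, for the genes on which the values below turn. Promoter windows, from 250 bases before to 50 bases after a RefSeq start site on GRCm38.p6, were found for 37 of the 45 genes and gave 50 windows. The paired heat shock element, searched on both strands as GAANNTTC or TTCNNGAA, lay in 8 of the 50 windows (16.0%), against 15.06% of all 32851 windows. Those windows belonged to Dnaja1, Dnaja4, Dnajb4, Dnajb6, Dnajc10, Dnajc27 and Dnajc5g. The windows of Dnajb1, named above as a heat shock factor target, held no match. The longer triple heat shock element, which contains the paired one, was found in 2 windows, both of Dnajb6, against 0.603% of all windows. The bases of this triple element are in capitals in the stretch at chr5:29735827-29735889 (plus strand). There it starts 46 bases before one start site of Dnajb6 and 127 bases before another. The ER stress element, bound by factors of the unfolded protein response, was found in 1 window, that of Dnajc3, against 0.119% of all windows. Its bases are in capitals in the stretch at chr14:118937802-118937870 (plus strand), 105 bases before the start site. These matches describe letters in the windows and no binding was measured.
Dnajb6 promoter: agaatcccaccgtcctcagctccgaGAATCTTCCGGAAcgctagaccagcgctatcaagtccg
Dnajc3 promoter: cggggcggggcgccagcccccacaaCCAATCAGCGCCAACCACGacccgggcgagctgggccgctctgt

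Some genes were read by several probes of 60 bases, and for Dnajb14 and Dnajc21 the probes gave different results, so the first 30 bases of their measured probes are shown. The brightest Dnajb14 probe lies at chr3:137579462-137579521 and its other probe at chr3:137571429-137571488 on mm9, the build of the array annotation. The brightest Dnajc21 probe lies at chr15:10379356-10379415 and its second probe at chr15:10382379-10382438. Whether these positions are in coding sequence or in untranslated sequence was not analysed here.
Dnajb14 brightest probe: tgtctttcagtctctgtaatttatctcaac
Dnajb14 other probe: gataagctgggtcccacctgctcctttctg
Dnajc21 brightest probe: aagaattagaaaataggccccaagaaaata
Dnajc21 second probe: caacctagacagattaagtaaatacttagt

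The probes of Dnajc19 and Dnajc5 are shown because part of each is shared with probes of other genes. Words were counted on either strand, so the counts include gene names whose probes hold only the opposite-strand word. The brightest Dnajc19 probe has a 14-base word in common with probes of 148 other gene names, and 0.131% of all probes share with at least as many. The capitals in its bases 29 to 58 mark the word found, on either strand, in probes of 130 other gene names, a TG repeat. The brightest Dnajc5 probe shares a word with 12 other gene names, and the capitals in its bases 1 to 30 mark the word found in 8 of them. The other brightest DNAJ probes shared with at most 6 gene names, and the median over all probes was 2. Both brightest probes were well above background on all 6 arrays, whereas the other Dnajc19 probe was on 5 of 6 arrays and the remaining Dnajc5 probes on 0, 2 and 3 of 6. The values of both genes are given as uncertain. Dnajc19 lies outside the rule for named genes and was singled out after its values were seen.
Dnajc19 brightest probe, bases 29 to 58: ccttttacTGTGTGTGTGTGTGtgcactcg
Dnajc5 brightest probe, bases 1 to 30: gaactAGTTCCAGGACAGCcaggactacac

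Levels are given as the log2 signal minus the 75th percentile of the array, and they serve to compare 1 probe across arrays, not different probes. The marker sums below add the levels of different probes, so bright probes weigh most in them. Arrays are named knockout 1 to 3 and control 1 to 3. Of the non-control probes, 44.2% to 57.9% were well above background per array, and 30 to 34 of the 45 DNAJ genes were. Knockout 3 was the lowest in both, at 44.2% and 30 genes, and the other arrays had at least 51.7% of the probes above background. Psmc4, the targeted gene, had levels of 2.05, 2.07 and 1.54 on knockout arrays 1 to 3 and of 2.93, 2.61 and 2.87 on the control arrays. Its levels did not overlap, and its difference of -0.92 (SE 0.24, n = 3 against 3) had a limma adjusted p of 0.421. Knockout 3 stood apart on the first principal component, at 72.0 against -25.4 to -5.5 for the other arrays. Knockout 1 and knockout 2 lay in row 1 of the slide, while knockout 3 and all control arrays lay in row 2, so row and genotype can be separated only through knockout 3.

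The labelled cell type was checked against its markers. All 9 satellite cell markers listed were above background on every control array, and 6 to 8 of 9 were on the knockout arrays. Their summed linear level, in units of the array's 75th percentile, was 111 to 129 on the knockout arrays and 144 to 201 on the control arrays, which did not overlap. Cxcr4 carried most of that sum, and without it the groups overlapped, at 32.6 to 54.7 against 41.7 to 47.3, as seen after the data were examined. Differences were above 0 for 4 of the 9 markers, with 0.17 for Pax7, 0.07 for Cdh15, 0.04 for Vcam1 and 0.49 for Sdc4. They were below 0 for 5, with -1.97 for Myf5, -1.04 for Calcr, -0.64 for Cxcr4, -0.63 for Chodl and -0.27 for Itga7. The knockout arrays lay wholly below the control arrays for Myf5, Calcr and Cxcr4, against 5.61% of all features. Their limma adjusted p were 0.188, 0.441 and 0.615. Myf5, a muscle lineage factor, was above background on 0 of 3 knockout arrays and 3 of 3 control arrays, so its difference is uncertain. The 5 red blood cell markers used summed to 5.83 to 10.5 on the knockout arrays against 1.88 to 4.21 on the control arrays, which did not overlap. Above background were 3 to 4 and 2 to 3 of 5, and Ahsp was not on any array. Hba-a1 gave 1.88 and Hbb-b1 2.73, with limma adjusted p of 0.364 and 0.549, and Slc4a1 gave -0.0046. For Hba-a1 and Hbb-b1 the knockout arrays lay wholly above the control arrays, against 5.08% of all features. Neutrophil markers summed to 1.40 to 14.3 on the knockout arrays, highest on knockout 2 and lowest on knockout 3, and to 1.40 to 3.86 on the control arrays. Markers of fibro-adipogenic progenitors, the connective tissue cells of muscle, were all above background on every array and summed to 134 to 155 against 141 to 201. The groups also overlapped for markers of muscle fibres, endothelial cells, macrophages, T cells, mural cells and Schwann cells. The part of these cells in the DNAJ values was not tested, and fewer cells of a type and less RNA per cell cannot be told apart in bulk RNA.

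No DNAJ gene passed the test. The fit was limma over 19199 tested features, and features entered it whose probe exceeded background clearly on every array of the knockout or of the control group. Of the 45 DNAJ genes, 29 were tested: 4 of subfamily A, 8 of B and 17 of C. All 29 were above background on all 6 arrays. At an adjusted p under 0.05, 0 of the 29 were called, and 0% of all features were. The smallest adjusted p was 0.610 among the DNAJ genes and 0.0601 among all features.

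Without adjustment, at a p under 0.05, 0 DNAJ genes were higher and 1 was lower in the knockout, against 2.83% and 4.21% of all features. The knockout arrays lay wholly above the control arrays for 1 DNAJ gene, Dnajb6, and wholly below them for 1, Dnajb14, against 5.08% and 5.61% of all features. The fitted difference was above 0 for 18 of 29 (62.1%), against 56.3% of all features. The median difference was 0.12 over the 29 genes and 0.04 over all features, and the DNAJ differences ran from -0.77 to 0.44. These shares are near those of all features or below them.

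In the fit without slide row, most DNAJ differences were bounded within a doubling or a halving. These intervals do not allow for slide row. The 95% interval lay wholly between -1 and 1 on the log2 scale, a doubling or a halving, for 23 of 29 DNAJ genes (79.3%), against 62.9% of all features. That held for 3 of 4 genes of subfamily A, 6 of 8 of B and 14 of 17 of C. The standard error of a DNAJ difference ran from 0.21 to 0.46. With a slide row block, which rests on knockout 3 alone, Dnajc1 moved from 0.18 to 0.88 and Dnajc3 from 0.02 to -0.61. Both were among the 23. All 29 DNAJ genes were above background on all 6 arrays, as were 16709 of the 19199 features, so the 62.9% includes dimmer features.

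**Figure D1:**
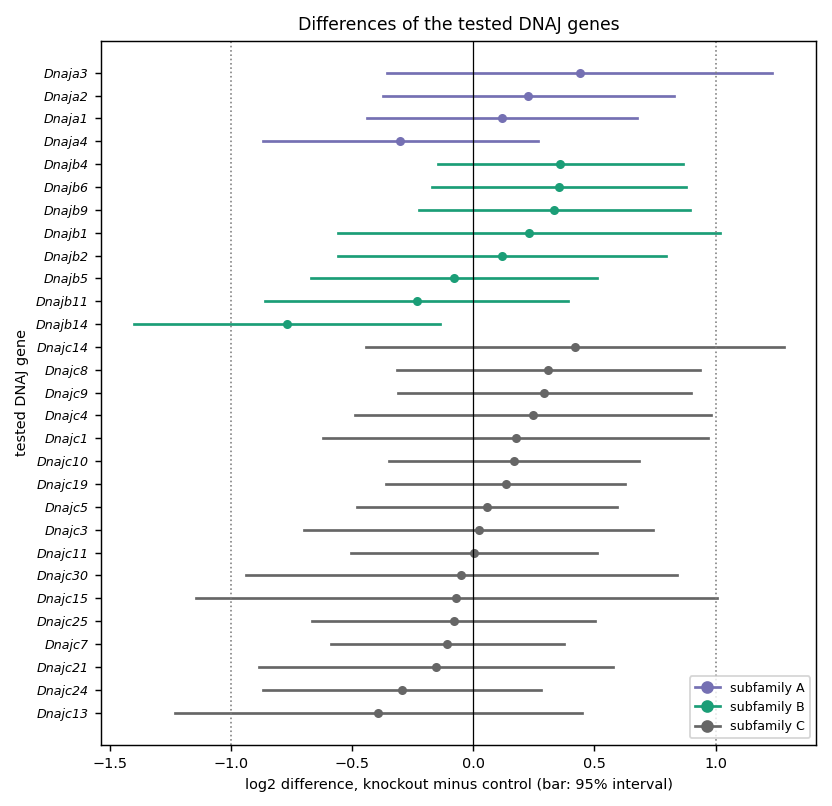
Log2 difference, knockout minus control, of each tested DNAJ gene (point) with its 95% interval from limma (bar, 3 arrays per group), coloured by subfamily, with dotted lines at -1 and 1. The interval of 1 gene, Dnajb14, leaves out 0, and 23 of 29 lie wholly between the dotted lines.

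Subfamily A was measured whole, and its 4 genes gave 3 differences above 0 and 1 below. Dnaja1, a main cytosolic partner of HSC70, had levels of 5.12, 5.61 and 5.19 on the knockout arrays and of 5.28, 5.37 and 4.91 on the control arrays. The groups overlapped, with knockout 2 the highest and control 3 the lowest, and the difference was 0.12 (SE 0.24). Dnaja2, its close relative in the cytosol, had levels of 1.80, 1.63 and 1.098 against 1.04, 1.44 and 1.37. Here knockout 1 and knockout 2 were above all controls and knockout 3 was among them, and the difference was 0.23 (SE 0.26).

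Dnaja3, the J-domain protein of the mitochondrial matrix also known as Tid1, showed the same split more widely. Its levels were 0.15, -0.19 and -1.11 on the knockout arrays and -0.71, -1.08 and -0.67 on the control arrays. Knockout 1 and knockout 2 were above every control, and knockout 3 was the lowest array, just under control 2. The difference was 0.44 (SE 0.34, 95% interval -0.36 to 1.23), and limma's adjusted p was 0.951. Without knockout 3 it was 0.80 with a limma adjusted p of 0.464, and a slide row block turned it to -0.29.

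Dnaja4, a cytosolic member whose gene responds to sterols, was the one A gene with a difference below 0. It had levels of -0.34, -0.10 and -0.36 on the knockout arrays and of -0.36, 0.25 and 0.22 on the control arrays. Control 1 lay with the knockout arrays, control 2 and control 3 lay above them, and the difference was -0.30 (SE 0.25).

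Among the cytosolic genes of subfamily B, Dnajb6 and Dnajb4 had the most regular levels. Dnajb6, which keeps aggregation-prone proteins soluble, had levels of 3.04, 3.36 and 3.16 on the knockout arrays and of 2.55, 3.03 and 2.92 on the control arrays. Every knockout array was above every control array, though knockout 1 and control 2 were nearly level. The difference was 0.35 (SE 0.23), a fold of 1.28, with a limma adjusted p of 0.901 and the smallest exact permutation p that 3 arrays against 3 allow, 0.1. All 4 Dnajb6 probes gave differences from 0.35 to 0.42, and 2 of them, at chr5:30112855-30112911 and chr5:30112861-30112920 on mm9, overlap, so the 4 are not separate measurements. Only the brightest of the 4 had groups that did not overlap.

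Dnajb4, a heat-inducible relative of Dnajb1, had levels of 2.91, 3.13 and 3.09 on the knockout arrays and of 2.45, 2.91 and 2.69 on the control arrays. Knockout 2 and knockout 3 were above every control and knockout 1 was level with control 2. The difference was 0.36 (SE 0.22), with a limma adjusted p of 0.879.

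Dnajb1, the classical heat-inducible HSP40, had levels of 5.11, 6.06 and 4.79 on the knockout arrays and of 4.90, 5.18 and 5.20 on the control arrays. Knockout 2 was far above all others and knockout 3 was the lowest of the 6. The difference of 0.23 (SE 0.34, 95% interval -0.56 to 1.02) turned to -0.14 without knockout 2 and to -0.30 in a fit with a slide row block. Dnajb5, a close relative of Dnajb1, had levels of -0.39, -0.83 and -0.90 against -0.96, -0.38 and -0.53, with groups that overlapped and a difference of -0.08. Dnajb2, which binds ubiquitin chains and hands clients to the proteasome, had levels of 2.56, 2.52 and 1.65 against 2.07, 2.003 and 2.30. Knockout 1 and knockout 2 were above all controls and knockout 3 was below them, and the difference was 0.12, while a dimmer Dnajb2 probe, above background on 1 of 3 knockout arrays and 3 of 3 control arrays, gave -0.63.

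The B genes of the endoplasmic reticulum did not share a direction. Dnajb9, the ERdj4 co-chaperone of the HSP70 of this compartment, had levels of 2.95, 3.41 and 2.90 on the knockout arrays and of 2.96, 2.78 and 2.51 on the control arrays. Knockout 2 stood above the rest, the other arrays overlapped, and the difference was 0.33 (SE 0.24), against 0.03 at a second probe. Dnajb11, or ERdj3, a soluble co-chaperone of the same HSP70, had levels of 3.39, 3.61 and 2.74 against 3.53, 3.35 and 3.56. Knockout 3 alone was below the controls and the difference was -0.23 (SE 0.27), which became 0.02 without knockout 3 and -0.74 with a slide row block.

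Dnajb14, a membrane protein of the endoplasmic reticulum, had the smallest p of all DNAJ genes. Its levels were 1.31, 0.68 and 0.80 on the knockout arrays and 2.07, 1.44 and 1.58 on the control arrays. Every knockout array was below every control array. The difference was -0.77 (SE 0.27, 95% interval -1.40 to -0.14), 58.7% of the control level, with an unadjusted limma p of 0.0233 and an adjusted p of 0.610. Leaving out 1 array gave differences from -0.96 to -0.58, and the unadjusted p was then no longer under 0.05 without knockout 2, without knockout 3 or without control 1. With a slide row block the difference was -0.90 and its unadjusted limma p was 0.058. The second Dnajb14 probe, shown above, had levels of -1.58, -0.89 and -0.30 against -0.81, -1.03 and -0.87. Those groups overlapped and its difference was -0.02 (SE 0.33), so the lower level was seen at 1 of 2 probes. That brightest probe is annotated to an Ensembl transcript and had no RefSeq match. The second probe is annotated to a RefSeq transcript of Dnajb14.

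**Figure D2:**
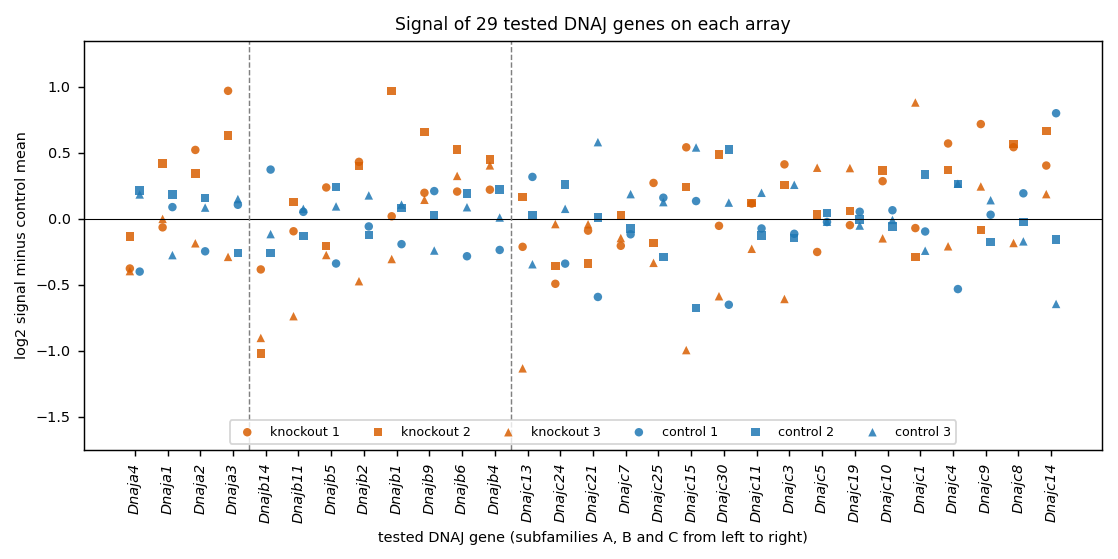
Log2 signal of each tested DNAJ gene on each array minus the mean of the 3 control arrays, with knockout arrays in orange, control arrays in blue and 1 marker shape per replicate number; dashed lines separate subfamilies A, B and C. Knockout 3 (orange triangles) is the lowest array for 11 of 29 genes, and only Dnajb6 and Dnajb14 have groups that do not overlap.

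Subfamily C covers specialized J-domain proteins of many compartments, and 0 of its 17 tested genes had an unadjusted p under 0.05 or groups that did not overlap. Differences were above 0 for 10 and below 0 for 7, with a median of 0.02. The largest above 0 were Dnajc14, a membrane protein of the endoplasmic reticulum, at 0.42 (SE 0.37) and Dnajc8, a splicing-associated nuclear protein, at 0.31 (SE 0.27). For Dnajc14 the difference was 0.097 without control 3, 0.82 without control 1 and 0.15 with normexp background correction. Dnajc9, a histone chaperone, gave 0.29 (SE 0.26), and Dnajc4 gave 0.25 (SE 0.32). Dnajc8 had levels of 4.001, 4.03 and 3.27 on the knockout arrays and of 3.65, 3.43 and 3.29 on the control arrays. Knockout 1 and knockout 2 were above all controls, and knockout 3 was the lowest array by a small margin. The other 2 measured probes of Dnajc8 gave 0.08 and 0.21.

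The C genes furthest below 0 were Dnajc13, which works on endosomes, at -0.39 (SE 0.36) and Dnajc24, needed for diphthamide synthesis, at -0.30 (SE 0.25). Dnajc13 had levels of 0.65, 1.02 and -0.27 against 1.18, 0.88 and 0.51. Knockout 3 alone lay below the controls, and without array knockout 3 the difference was -0.02, while a slide row block gave -1.13. Dnajc21, a factor of ribosome assembly, gave -0.16 (SE 0.31), and Dnajc7, which binds both HSP70 and HSP90, gave -0.11 (SE 0.21).

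Dnajc21 had a second probe with another result, annotated to an Ensembl transcript without a RefSeq match. That probe had levels of -1.66, -2.53 and -1.97 on the knockout arrays and of -1.16, -0.61 and -1.24 on the control arrays, and it was above background on 2 of 3 knockout arrays. All knockout arrays were below all control arrays. Its difference was -1.05 (SE 0.30), with an unadjusted p of 0.00876 and an adjusted p of 0.451 in a limma fit over 26109 probes. The brightest Dnajc21 probe, with levels of -0.48, -0.72 and -0.43 against -0.98, -0.38 and 0.19, overlapped between the groups.

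The luminal C genes of the endoplasmic reticulum were close to 0. Dnajc3, the p58IPK protein that restrains the PERK kinase and the gene with the ER stress element above, had levels of 2.42, 2.27 and 1.40 on the knockout arrays and of 1.90, 1.86 and 2.27 on the control arrays. Knockout 3 was the lowest, knockout 1 the highest, and the difference was 0.02 (SE 0.31). Dnajc10, the disulphide reductase ERdj5, had levels of 2.51, 2.60 and 2.08 against 2.29, 2.17 and 2.22, again with knockout 3 the lowest, and a difference of 0.17 (SE 0.22).

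Dnajc5, the cysteine string protein of secretory vesicles, had levels of 7.03, 7.31 and 7.67 against 7.26, 7.32 and 7.26 and a difference of 0.06 (SE 0.23) at the probe that shares words with other genes. Here knockout 3 was the highest array and knockout 1 the lowest. Dnajc19, of the mitochondrial import motor, gave 0.13 at its shared probe, where knockout 3 was again the highest at 8.05. Its other probe gave -0.08. The median of subfamily C was 0.00 without these 2 genes.

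The 5 remaining tested C genes are given for completeness, outside the rule for named genes. Dnajc1, a membrane protein of the endoplasmic reticulum, gave 0.18, or 0.88 with a slide row block, and Dnajc25 gave -0.08. The mitochondrial genes Dnajc15, Dnajc30 and Dnajc11 gave -0.07, -0.05 and 0.00. Dnajc15 had the widest error of the 29, with an SE of 0.46.

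Grouped by compartment from general knowledge, the 14 tested genes of the cytosol or nucleus had a median difference of 0.12, the 6 listed for the endoplasmic reticulum of 0.10 and the 5 of the mitochondria of 0.00. Differences above 0 were found for 9 of 14, 4 of 6 and 3 of 5, against 56.3% of all features. The other 4 tested genes, Dnajc4, Dnajc14, Dnajc24 and Dnajc25, were in no listed group. With Dnajc14 counted to the endoplasmic reticulum, a choice made after its value was seen, 5 of 7 were above 0 and the median was 0.17. The median over all features was 0.04, and 0 genes of any of these groups passed the adjusted threshold.

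The other 16 DNAJ genes, 5 of subfamily B and 11 of C, were not tested. Of these, 9 were not well above background on any array: Dnajb7, Dnajb13, Dnajc5g, Dnajc6, Dnajc12, Dnajc18, Dnajc22, Dnajc27 and Dnajc28. Dnajb3, Dnajb8 and Dnajc16 were above it on 1 array, Dnajb12 and Dnajc5b on 2, and Dnajc2 and Dnajc17 on 4, which were 2 of each group. Several of these genes are known from tissues other than muscle, such as the testis for Dnajb3, Dnajb8 and Dnajb13 and neurons for Dnajc6. No difference is given for these 16 genes, since neither group had all 3 arrays above background. Dnajc17 and Dnajc2 entered the test under other settings, with 0.67 (SE 0.39) for Dnajc17 without knockout 3 and 0.76 (SE 0.40) for Dnajc2 within slide row 2, both with an unadjusted limma p above 0.05.

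Several genes had more than 1 probe. Of the 45 genes, 20 did, and 11 had several tested probes. In 4 of the 11, Dnaja1, Dnajb2, Dnajc19 and Dnajc24, the probes had differences of opposite sign, and all these probes had intervals that include 0. The 4 Dnajb6 probes lay within 0.35 to 0.42, while the probes of Dnajb2 gave 0.12 and -0.63.

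**Figure D3:**
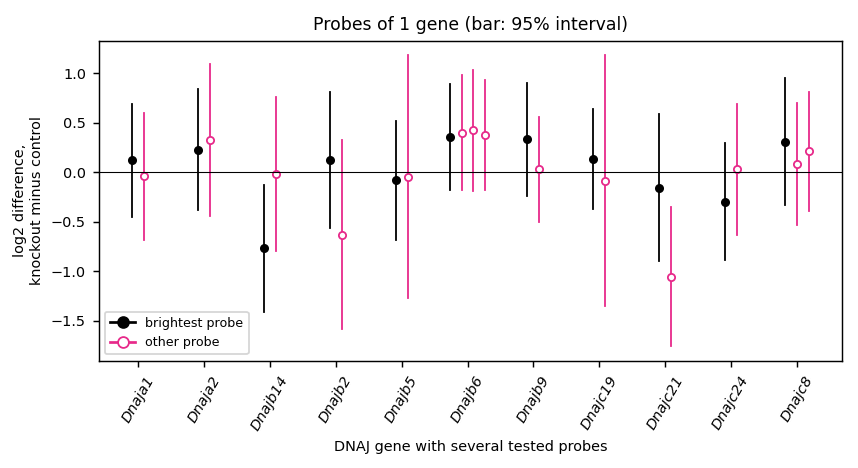
Log2 difference, knockout minus control, with its 95% interval (bar) for each probe of the 11 DNAJ genes with several tested probes, from a limma fit over all tested probes; filled black points are the brightest probes and open points the others. The intervals leave out 0 for the brightest Dnajb14 probe at -0.77 and for 1 dimmer Dnajc21 probe at -1.05.

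For 19 of 29 DNAJ genes the standard deviation was higher over the knockout arrays than over the control arrays. The same count was not made over all features, so it is not given as a trait of the DNAJ genes. Knockout 3 was the lowest of the 6 arrays for 11 DNAJ genes (37.9%), against 26.3% of all features, and the highest for 3 (10.3%), against 27.8%. Knockout 1 and knockout 2 were the highest for 8 genes each (27.6%), against 16.6% and 15.5% of all features. These shares were not tested. In subfamily B, knockout 2 was the highest array for 5 of 8 genes. Median deviations from the mean over 6 arrays were 0.14, 0.30 and -0.27 on knockout arrays 1 to 3 for subfamily A, 0.03, 0.30 and -0.33 for B, and 0.11, 0.12 and -0.23 for C. On the control arrays these medians ran from -0.21 to 0.14. Knockout 3 was thus the lowest array in each subfamily, and the knockout and control arrays overlapped in each. Knockout 3 also had the fewest probes above background, and the part of that in these levels was not tested.

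The direction of the subfamily medians rested on this split. Medians were 0.17 for A, 0.17 for B and 0.02 for C over all arrays. Without knockout 3 they were 0.31, 0.35 and 0.17, and 22 of 30 tested genes were above 0, against 54.7% of all features. With slide row as a block, only knockout 3 is set against the controls. The subfamily medians were then -0.24, -0.29 and -0.15, and 8 of 29 genes were above 0, against 50.1% of all features. The median over all features was 0.04 without knockout 3 and 0.00 with the block. The median of B was -0.02 without knockout 2, and the median of C was -0.05 without knockout 1, 0.00 without control 1 and 0.00 after quantile normalization. No direction can be given for any of the 3 subfamilies that holds across these settings.

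**Figure D4:**
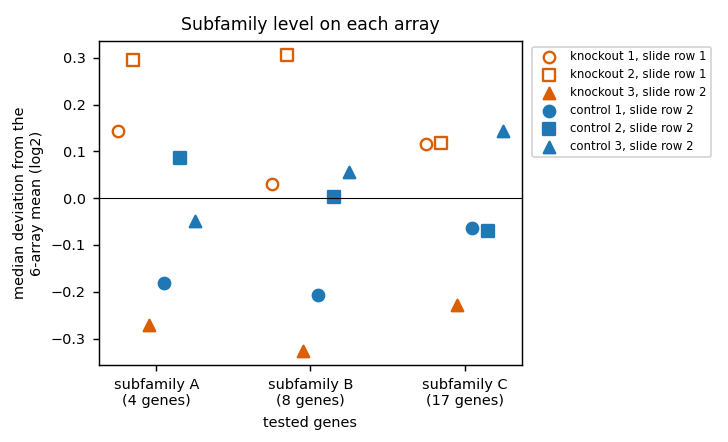
Median deviation of the tested genes of subfamilies A, B and C from their mean over 6 arrays (log2), on each array; orange is knockout, blue is control, open symbols lie in slide row 1 and filled symbols in row 2. Knockout 1 and knockout 2 are above 0 and knockout 3 is the lowest array in all 3 subfamilies.

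The HSP70 and HSP110 genes and the partners of HSP70 were read from lists of their own. Of 14 HSP70 and HSP110 genes on the array, 13 were tested and 0 were called. Differences were above 0 for 9 (69.2%), against 56.3% of all features, with a median of 0.07 against 0.04. Hspa12a, a divergent HSP70, had levels of -0.90, -1.31 and -1.27 on the knockout arrays and of -0.55, -0.11 and -0.80 on the control arrays. The groups did not overlap and the difference was -0.68 (SE 0.26, limma adjusted p 0.627). Hspa9, the mitochondrial HSP70, was the 1 tested gene of the list whose knockout arrays, at 5.51, 5.69 and 5.53, all lay above the control arrays, at 5.34, 5.21 and 5.20, with a difference of 0.33 (SE 0.20, limma adjusted p 0.879). It was named after its values were seen, and 1 of 13 tested genes in each direction stands beside 5.08% and 5.61% of all features. Hspa14, an HSP70 of the ribosome, gave -0.77 (SE 0.41), and Hyou1, an HSP110 relative of the endoplasmic reticulum, gave 1.26 (SE 0.68), both with groups that overlapped. Hspa14 was above background on 2 of 3 knockout arrays and Hyou1 on 2 of 3 control arrays, and leaving out 1 array gave -1.20 to -0.32 for Hspa14 and 0.52 to 1.84 for Hyou1. Hspa14 was at -0.32 without knockout 3, and Hyou1 at 0.52 without control 1. With normexp they were at -0.21 and 0.29. Hspa1a, the inducible HSP70, was looked at after its values were seen because of Dnajb1. Its levels were 2.79, 4.44 and 3.45 against 3.57, 3.45 and 3.45, so knockout 2 was the highest for it as for Dnajb1, and its difference was 0.07 (SE 0.39).

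Of 13 nucleotide exchange factors and other HSP70 partners, 12 were tested and 0 were called. Differences were above 0 for 11 (91.7%), against 56.3% of all features, with a median of 0.13 against 0.04. That share was not tested, and it depends on the list, since the HSP110 genes were counted with the HSP70 genes above. Of these, Hspa4, Hsph1 and Hyou1 gave -0.17, -0.06 and 1.26. Stub1, the CHIP ubiquitin ligase that marks HSP70 clients for the proteasome, had levels of 2.005, 2.30 and 2.12 on the knockout arrays and of 1.44, 1.95 and 1.83 on the control arrays. The groups did not overlap and the difference was 0.41 (SE 0.23, limma adjusted p 0.855). It was the 1 gene of the 12 with knockout arrays wholly above the control arrays, against 5.08% of all features. Stip1, which links HSP70 to HSP90, gave 0.37, and Grpel1, the mitochondrial exchange factor, gave 0.29. Knockout 2 was the highest array for 6 of these 12 genes and for 5 of the 13 HSP70 and HSP110 genes, against 15.5% of all features. Knockout 3 was the lowest for 6 of the 12, against 26.3% of all features, and knockout 1 was the lowest for 5 of the 13, against 18.9%. Of 3 J-domain genes under other names, Gak gave 0.12 and Sec63 -0.11, and Hscb was not tested.

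Bag3 and Hspb8 act together with HSP70 in chaperone-assisted autophagy. Bag3 had levels of 3.65, 4.21 and 3.73 against 3.65, 3.71 and 3.69, with knockout 2 above the rest and a difference of 0.18 (SE 0.23). Hspb8, a small heat shock protein, had levels of 1.85, 2.38 and 2.05 on the knockout arrays and of -0.35, -0.48 and -2.13 on the control arrays. All knockout arrays were above all control arrays, and the difference of 3.08 (SE 0.47, limma adjusted p 0.188) was the highest of all tested features. No DNAJ gene had a difference above 0.44.

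**Figure D5:**
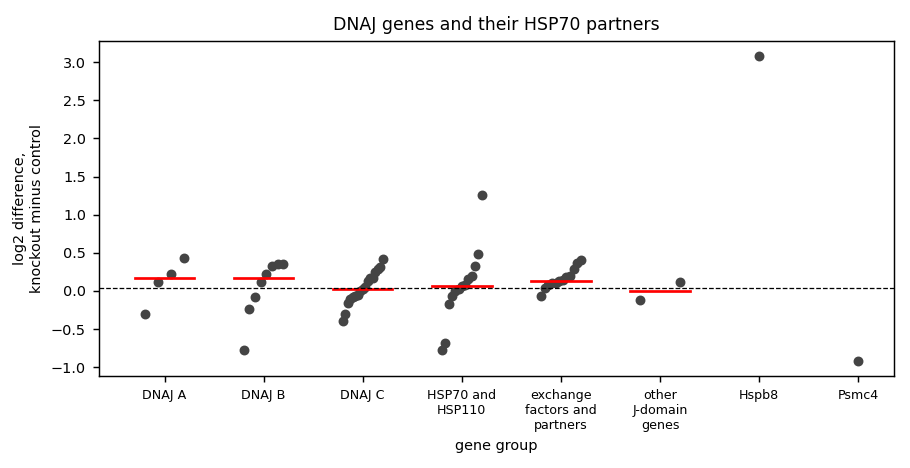
Log2 difference, knockout minus control, of each tested gene (point) in DNAJ subfamilies A, B and C, the HSP70 and HSP110 genes, the exchange factors and partners, and the J-domain genes under other names, with the median of each group (red line), and of Hspb8 and Psmc4 alone; the dashed line is the median over all features, 0.04. The DNAJ genes lie between -0.77 and 0.44, Hspb8 at 3.08 and Psmc4 at -0.92.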

How the data were processed

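Scanner output of each array was deposited as linear intensity. The authors' processed signal is an intensity that Agilent Feature Extraction had background-subtracted and detrended, in version 10.7.1.1 per the file headers and 9.5.1.1 per the submitters' processing notes. The deposited value table, also intensity, has the same median in all 6 columns and served as an alternative. RNA was extracted with TRIzol and amplified over the whole transcriptome, per the labels' protocols.

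The processed signals were put on a log2 scale and each array's 75th percentile was subtracted. Control and outlier-flagged spots were dropped, and repeated spots of a probe were averaged. No spot was saturated, with 0 on each array. Gene names are those of the files, and 42 of the 45 were matched by accession to RefSeq under the same symbol. The brightest probes of Dnajb5, Dnajb14 and Dnajc25 were not matched. Knockout and control arrays, 1 per mouse, were compared by moderated linear models (limma 3.58.1, R 4.3.3, functions lmFit and eBayes), 2-sided, with Benjamini-Hochberg adjustment over all tested features. The median standard error was 0.27. The number of arrays limits the precision. The fit was tested on simulated data with independent noise for each gene, without a deviating array or a slide row effect. The rates found there are not reported here.

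The DNAJ genes, the other gene lists and the named genes were chosen with earlier results of these data known. Of each subfamily, the 4 tested members of lowest p on either side were named, with all tested A genes and 11 members named always. Each partner list gave its 3 smallest p, and Psmc4, Hspb8 and Bag3 were always named. Protein features were not analysed here, and some listed genes are not reported here. The labels do not pair the mice, and same-numbered arrays deviated together with correlations of 0.07, -0.02 and 0.09. Alternatives covered background correction, scaling, filters, probe choice, the deposited table, moderation, array weights, replicate and slide row blocks, each array left out, an ordinary 2-sample test and another threshold.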

Additional observations from a re-analysis of the deposited data

How the results depend on the processing

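Calls among the DNAJ genes were 0 under all 22 alternatives. Over all features, calls were 1 after quantile normalization, 1 from the deposited table, 1 with an intensity trend and robust moderation, 2 after median scaling, 2 with the mean of all probes, 2 at an adjusted p under 0.1 and 168 with array weights, and 0 under the rest. With the replicate number as a block, which the labels do not state as a pairing, calls were 0 among the DNAJ genes and 0 over all features, and 1 DNAJ gene was lower at an unadjusted p under 0.05, as without it. With array weights 7 DNAJ genes (24.1%) had an unadjusted p under 0.05 in the higher direction, against 10.4% of all features. Array weights took the adjusted p of Hspb8 to 0.0248 at a difference of 3.37.

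Both slide row settings rest on knockout 3 alone against the controls. As a block and within row 2, subfamily medians were -0.24 for A, -0.29 for B and -0.15 for C. With the block, Dnajb11 at -0.74 and Dnajc13 at -1.13 had an unadjusted p under 0.05 in the lower direction and Dnajc1 at 0.88 in the higher, against 8.14% and 8.26% of all features, with adjusted p from 0.278 to 0.287. The same settings turned Dnaja1 to 0.00, Dnaja2 to -0.18, Dnaja3 to -0.29, Dnajb1 to -0.30, Dnajb2 to -0.47, Dnajc10 to -0.15, Dnajc3 to -0.61, Dnajc4 to -0.21, Dnajc8 to -0.18 and Grpel1 to -0.11. Array weights turned Dnajb11 to 0.081 and Dnajc13 to 0.11. The mean of all probes turned Dnajb2 to -0.25 and Sec63 to 0.025. Dnajc3 became -0.0077 with normexp, -0.0015 after quantile normalization and -0.0016 in the deposited table, and Dnajc5 became -0.0071, -0.026 and -0.024 in these settings. The cause of each of these changes was not tested.

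Leaving out each array in turn gave -0.032 to 0.21 for Dnaja1, -0.14 to 0.49 for Dnajb1, -0.036 to 0.42 for Dnajb2, -0.25 to 0.042 for Dnajb5, -0.42 to 0.018 for Dnajb11, -0.17 to 0.34 for Dnajc3, -0.021 to 0.47 for Dnajc4, -0.11 to 0.21 for Dnajc5, -0.45 to 0.14 for Dnajc21 and -0.36 to 0.027 for Sec63. Subfamily medians then ran from 0.07 to 0.31 for A, -0.02 to 0.35 for B and -0.05 to 0.17 for C. Of 23 named DNAJ genes, 9 kept their direction under all 21 alternatives: Dnaja4, Dnajb4, Dnajb6, Dnajb9, Dnajb14, Dnajc7, Dnajc9, Dnajc14 and Dnajc24. Some came close to 0 under a setting, with 0.0078 for Dnajc9, -0.014 for Dnajc7 and -0.039 for Dnajc24. The alternatives reuse the same 6 arrays, and the share of all features that kept their direction was not computed. Second probes gave 0.03 for Dnajc24, the opposite sign, 0.03 for Dnajb9 and -0.02 for Dnajb14, while all Dnajb6 probes gave 0.35 to 0.42. Dim probes limit the 16 untested genes. Leaving Dnajc5 and Dnajc19 out of the subfamily C median was chosen after seeing the data.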
